A study of Rattus norvegicus with 72 samples.

Results

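Atf3, the gene for activating transcription factor 3, was followed through 72 Affymetrix arrays of rat dorsal root ganglia. It was taken as every probe set annotated to Atf3 alone, and 1 probe set met this rule among 20826 probe sets with a single gene symbol. Atf3 was thus 1 of 14217 named genes, and 1 of 12276 genes bright enough to be tested. The ganglia were lumbar L4 and L5 ganglia of Wistar rats aged 8 to 12 weeks, taken at 1, 3, 8, 12, 16, 18, 24 or 28 h after surgery. The lesion was labelled proximal on 22 arrays (sciatic nerve crush), distal on 29 arrays (crush at another site of the same nerve) and sham on 21 arrays. The labels give all arrays the same crush protocol text and do not describe the sham operation. No array was labelled as an intact, unoperated ganglion. Whether each array stands for its own animal is not given in the labels. The p-values then cover only the spread among arrays, which may be partly technical, and precision is set by the number of arrays. Groups of lesion and hour held 2 to 6 arrays, except sham at 16 h with 1 array.

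ATF3 belongs to the ATF/CREB family of basic leucine zipper (bZIP) transcription factors, which bind DNA as dimers and can pair with Jun. Sensory neurons of intact ganglia are known to hold little of it, and it is a widely used marker of neurons whose axon was injured. Stress kinases of the JNK pathway and ATF4, the factor of the integrated stress response, are known to switch the gene on. The series title concerns signals that run from an injured axon to the nucleus, so the levels of Atf3 by lesion and hour bear on when such a signal reaches the ganglion.

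Values are log2 intensities, so 1 unit is a 2-fold difference. Over all arrays Atf3 averaged 9.48, above 83.4% of all probe sets. Sensory neuron markers summed to 105300 to 123900 on the linear scale on proximal arrays of 18 to 28 h, 106600 to 119900 on distal arrays and 105900 to 124500 on sham arrays, so the defining markers of sensory neurons were present in each lesion.

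The arrays fell into 4 technical sets, named A to D here, which were found after the data were seen from probe sets too dim to be tested. All but 2 of the distal arrays, 27 in number, made up set A, which contained nothing else. Proximal and sham arrays lay together in set C at 1, 24 and 28 h, in set D at 3 and 8 h, and in sets B and D from 12 to 18 h. Distal arrays outside set A were array do of 1 h, in set B, and array do of 18 h, in set D. Set membership explained a share of 0.955 of the leading principal component, which carried 38.5% of the variance of tested genes. Differences between distal and other arrays therefore cannot be told apart from set A, and 1 h against 3 or 8 h within sham or proximal cannot be told apart from set C against set D. Array b of sham at 12 h stood apart from its label: its Atf3 of 11.55 lay next to the proximal arrays of 12 h. Atf3 differences of sham at 12 h are given with and without it. The fit shares 1 spread over all groups, so this array also widens the errors of Atf3 in the other comparisons. For sham 3 h minus 1 h the SE was 0.51 with it and 0.39 without it. Errors and p-values are given with it unless stated.

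After the proximal lesion Atf3 was low for the first 8 h and high from 12 h on. At 1 h the proximal arrays read 8.11, 7.96 and 7.79, at 3 h 6.45, 6.56 and 6.87, and at 8 h 7.79, 7.46 and 7.26. At 12 h they read 10.58 and 11.46, and at 16 h 11.42 and 11.75. Every proximal array from 12 h on lay above every proximal array up to 8 h. The later values were 12.47, 12.56 and 11.88 at 18 h, 12.68, 12.57 and 12.11 at 24 h, and 12.22, 12.62 and 12.62 at 28 h. The groups of 18, 24 and 28 h overlapped, with means of 12.30, 12.45 and 12.48.

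After the distal lesion the level was again low up to 8 h. Distal arrays read 7.66, 7.26, 7.75 and 8.56 at 1 h, 7.22, 7.30 and 7.19 at 3 h, and 7.96, 7.82, 8.11, 8.37 and 8.27 at 8 h. At 12 h they spread over 9.71, 8.69 and 10.60, and at 16 h they read 11.79 and 11.97. The 12 h arrays lay between the earlier and the later ones without touching either. The 6 distal arrays of 18 h read 11.95, 11.88, 11.82, 10.99, 11.51 and 12.00, where the 10.99 was the array of set D. At 24 h the values were 12.40, 12.16 and 12.41, and at 28 h 12.38, 12.41 and 12.29, above every distal array of 18 h.

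Sham arrays were low up to 8 h and scattered afterwards. They read 7.85, 7.43 and 7.17 at 1 h, 6.47, 6.45 and 6.31 at 3 h, and 6.14, 6.56 and 6.62 at 8 h. At 12 h array a read 7.32 and array b 11.55, and the only array of 16 h read 9.97. From 18 h on the values were 7.94, 7.85 and 9.46, then 8.45, 9.30 and 10.16 at 24 h, and 10.15, 7.96 and 7.83 at 28 h. None of these 9 late sham arrays reached the lowest late distal array (10.99) or the lowest late proximal array (11.88). The lowest late sham array, at 7.83, overlapped with the highest sham array of 1 h, at 7.85.

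**Figure D1:**
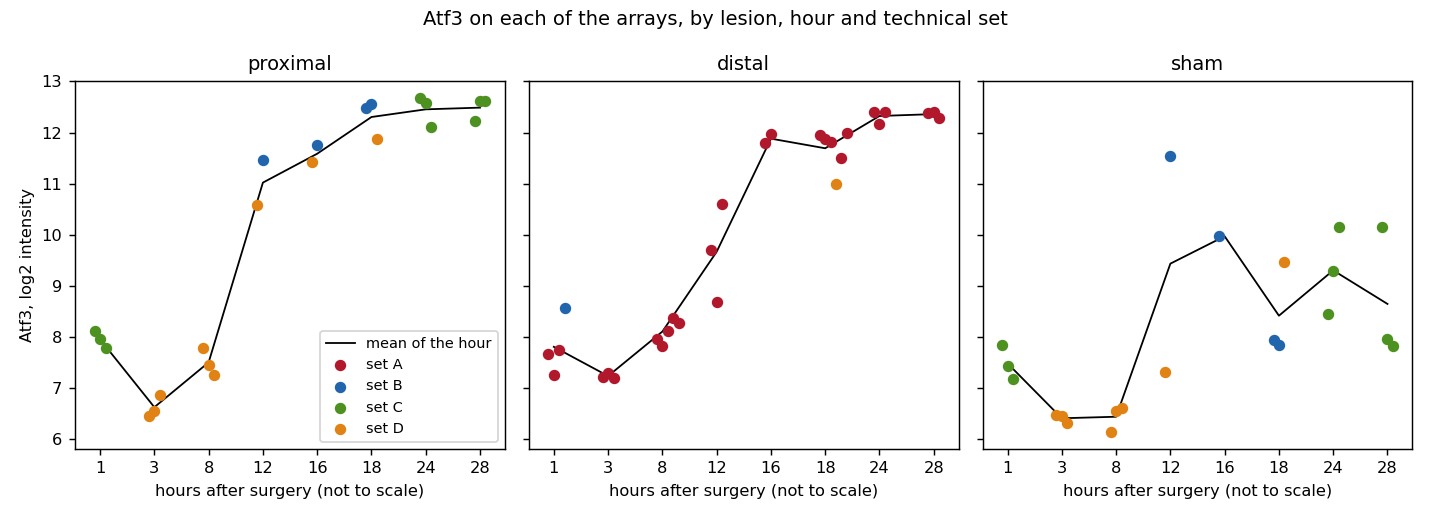
Atf3 on each array (log2 intensity, vertical axis) by hour after surgery (horizontal axis, not to scale) for proximal, distal and sham arrays. Points are arrays coloured by technical set, and lines join the means of the hours. Proximal and distal arrays lie between 10.99 and 12.68 from 18 h on, and sham arrays between 7.83 and 10.16, while sham array b of 12 h lies at 11.55.

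Ordered by level, the 24 group means ran from 12.48 (proximal, 28 h) to 6.41 (sham, 3 h). The top places went to proximal 28 h, proximal 24 h (12.45), distal 28 h (12.36), distal 24 h (12.32) and proximal 18 h (12.30). Next came distal 16 h (11.88), distal 18 h (11.69), proximal 16 h (11.59) and proximal 12 h (11.02). Below these lay sham 16 h (9.97), distal 12 h (9.67), sham 12 h (9.44), sham 24 h (9.30), sham 28 h (8.65) and sham 18 h (8.42). The groups of 1, 3 and 8 h filled the remaining places, led by distal 8 h (8.11) and proximal 1 h (7.95). Of the 23 pairs of neighbours in this order, 21 overlapped in their arrays, and 2 did not: proximal 12 h over sham 16 h, and distal 3 h over proximal 3 h.

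Set against sham hour by hour, with limma, Atf3 was called after the proximal lesion at 18, 24 and 28 h and at none of the earlier hours when all arrays were fitted together. A gene was called where its Benjamini-Hochberg adjusted p over all 12276 genes was under 0.05. At 1 h Atf3 differed by 0.47 (SE 0.51) and at 3 h by 0.21 (SE 0.51), and 0% of genes were called at either hour. At an unadjusted p under 0.05 limma had 247 genes (2.01%) at 1 h and 307 (2.5%) at 3 h. With array weights 1142 genes were called at 1 h and 288 at 3 h, and Atf3 was not among them. At 8 h the difference was 1.06 (SE 0.51, adjusted p = 0.364), with 1.75% of genes called. The same difference was called when only the arrays compared were fitted (adjusted p = 0.00107) and with array weights (adjusted p = 0.0192). Proximal and sham arrays of 8 h did not overlap (7.26 to 7.79 against 6.14 to 6.62), and the difference ranked 5 among the 12276 genes.

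At 12 h the proximal and sham values differed by 1.58 (SE 0.63, adjusted p = 0.666), with 0.0326% of genes called. Without sham array b the difference was 3.70 and called (adjusted p = 2.64e-05), and without sham array a it was -0.53 (adjusted p = 0.589), so 1 sham array set the result at this hour. Within technical sets, 1 array a side, it was 3.26 in set D and -0.088 in set B. At 16 h, with 1 sham array, the difference was 1.62 (SE 0.77, adjusted p = 0.447) with 0.0489% of genes called.

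From 18 h on every hour was called. The difference was 3.89 at 18 h (SE 0.51, adjusted p = 4.99e-07), 3.15 at 24 h (SE 0.51, adjusted p = 3.76e-05) and 3.84 at 28 h (SE 0.51, adjusted p = 2.6e-07). The shares of genes called at these hours were 1.51%, 1.21% and 4.47%. Split by set, the 18 h difference was 4.62 between the arrays of set B (2 a side) and 2.42 between those of set D (1 a side). The 18 h call was lost when only the proximal and sham arrays of that hour were fitted (adjusted p = 0.0988).

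Over 18, 24 and 28 h together, called the late window here, Atf3 averaged 12.41 ± 0.28 on proximal arrays (SD, n = 9) and 8.79 ± 0.99 on sham arrays (SD, n = 9). The 12.3-fold difference ranked first among the 12197 genes whose means lay above 5.46 on both sides (the filter level, under which a gene's mean kept it from being tested), ahead of the lectin gene Reg3b, the inflammation gene Tnfaip6 and the cytokine gene Tslp. The cytokine gene Il6 read 4.43 on late sham arrays, below that level, so its log2 difference of 3.46 can be understated and was not ranked against Atf3. Tnfaip6 and Tslp each read 5.50 on late sham arrays, barely above that level, so their differences can be understated too. In this comparison 5.35% of genes were called higher and 4.36% lower. An exact permutation test that exchanged lesion labels within hours gave p = 0.00025, two-sided, the smallest that its 8000 arrangements allow. Leaving out each of the 18 arrays in turn moved the difference between 3.48 and 3.87.

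Over 1 and 3 h, the early window, Atf3 averaged 7.29 ± 0.75 on proximal arrays (SD, n = 6) and 6.95 ± 0.63 on sham arrays (SD, n = 6). The difference of 0.34 (SE 0.36) was not called, and neither was any other gene, with 353 genes (2.88%) at an unadjusted p under 0.05 (0% called). With array weights 979 genes were called, and Atf3 was not among them.

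Distal arrays were set against sham arrays in the same windows. Late Atf3 averaged 12.02 ± 0.43 on distal arrays (SD, n = 12) and 8.79 ± 0.99 on sham arrays. The fit weights hours alike, which gave a distal mean of 12.12 and a log2 difference from sham of 3.33 (SE 0.28, 10.1-fold, adjusted p = 2.97e-14). No late distal array overlapped a late sham array, and the difference ranked 10 among the 11919 genes above the filter level on both sides. Early Atf3 averaged 7.56 ± 0.49 on distal arrays (SD, n = 7) and 6.95 ± 0.63 on sham arrays. With hours weighted alike the distal mean was 7.52 and the difference 0.58 (SE 0.35, adjusted p = 0.158). Of all genes 61.8% were called in the late and 55% in the early comparison, and lesion and set A cannot be told apart. Outside set A, set D held 1 array of each lesion at 18 h. Their Atf3 read 10.99 (distal), 9.46 (sham) and 11.88 (proximal). With technical set as a random block 88 genes were still called in the late comparison, and Atf3 was among them.

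Late Atf3 did not differ beyond its error between the lesion sites, but site and set A cannot be told apart. At 18 h the distal and proximal means were 11.69 and 12.30. They were 12.32 and 12.45 at 24 h, and 12.36 and 12.48 at 28 h. With hours weighted alike the level was 12.12 on distal arrays and 12.41 on proximal arrays, a difference of -0.29 (95% interval -0.86 to 0.28, adjusted p = 0.394), while 53.4% of genes were called.

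**Figure D2:**
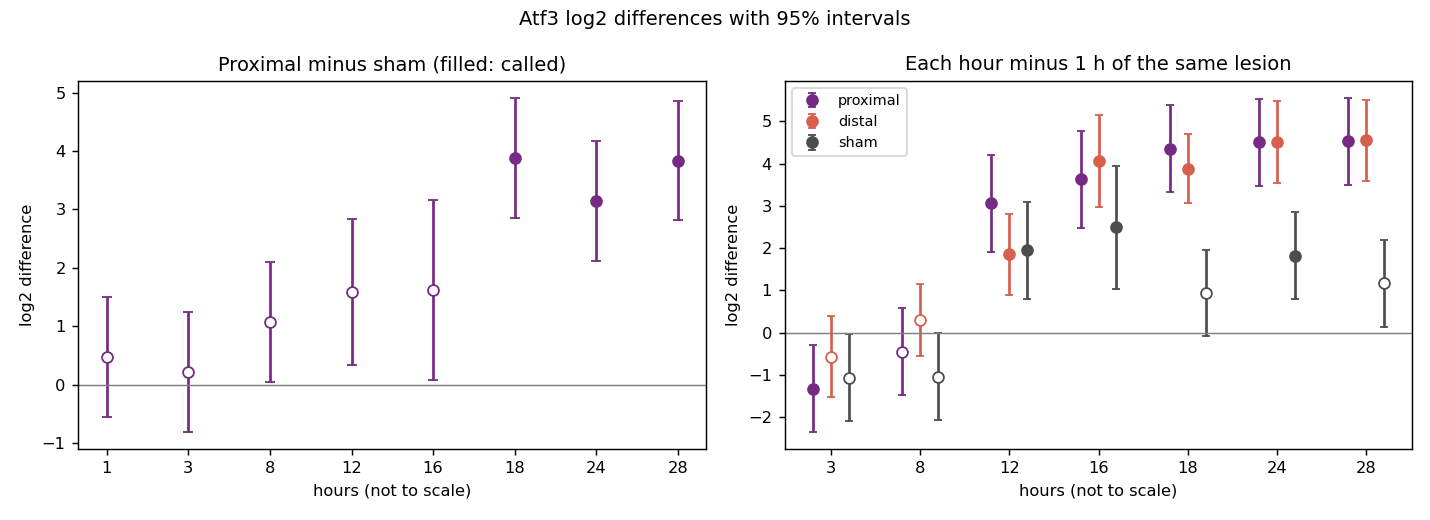
Log2 differences of Atf3 with 95% intervals (vertical axes) by hour (horizontal axes, not to scale). The left panel shows proximal minus sham, called (filled) at 18, 24 and 28 h, and the right panel shows each later hour minus 1 h within proximal, distal and sham arrays, where the proximal and distal points reach 4.53 and 4.55 at 28 h and the sham point 1.17.

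Within each lesion, later hours were compared with 1 h, which does not set distal arrays against other arrays. After the proximal lesion Atf3 was 3.07 higher at 12 h (SE 0.57, adjusted p = 0.00139), when 4.55% of genes were called. It was 3.63 higher at 16 h, 4.35 at 18 h, 4.50 at 24 h and 4.53 at 28 h, and each was called. The shares of genes called were 25.4%, 30%, 18.4% and 12% at these hours. Atf3 ranked first among all genes at each of these 5 hours. With technical set as a random block the values at 12, 16 and 18 h were 3.05, 3.62 and 4.20, but their errors widened (SE 1.21, 1.21 and 1.19) and these calls were lost. The arrays of 1, 24 and 28 h lay within set C, where Atf3 was 4.52 higher at 24 and 28 h (6 arrays) than at 1 h (3 arrays).

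At 3 h the proximal level was 1.33 below that of 1 h (SE 0.51, adjusted p = 0.0456) in a comparison of set D with set C in which 27.9% of genes were called. Leaving out any of the 6 arrays ended this call. At 8 h the difference was -0.45 (adjusted p = 0.542), with 27.2% of genes called. In sham arrays the same hours gave -1.07 (adjusted p = 0.125) and -1.04 (adjusted p = 0.116), with 23.4% and 31.8% of genes called. In distal arrays, nearly all of set A, 3 h differed by -0.57 (SE 0.48, 0.00815% of genes called) and 8 h by 0.30 (SE 0.42, 1.25% called), and within set A alone 3 h differed from 1 h by -0.32.

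Distal Atf3 was 1.86 higher at 12 h than at 1 h (SE 0.48, adjusted p = 0.028), when 1.47% of genes were called. That call was lost without any 1 of 5 arrays, with a lowest value of 1.39 without array c of 12 h. At 16 h Atf3 was 4.07 higher (SE 0.54, adjusted p = 1.39e-06), at 18 h 3.88, at 24 h 4.51 and at 28 h 4.55, and each was called. The shares of genes called were 0.619%, 5.13%, 10.5% and 10.1%. Within set A the 6 distal arrays of 24 and 28 h lay 4.78 above the 3 of 1 h.

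Sham arrays also left the level of 1 h. The difference was 1.96 at 12 h (SE 0.57, adjusted p = 0.0213, 10% of genes called), but -0.16 without array b, and 2.49 at 16 h on 1 array (SE 0.72, adjusted p = 0.0147, 19% called). At 18 h it was 0.94 (adjusted p = 0.398, 0.57% called), at 24 h 1.82 (SE 0.51, adjusted p = 0.0379, 2.6% called) and at 28 h 1.17 (adjusted p = 0.617, 0.0733% called). The 24 h call was lost without any 1 of 4 arrays (arrays b and c of 1 h, arrays b and c of 24 h), with a lowest value of 1.40 without array c of 24 h. A test of any change over the 8 hours called Atf3 in each lesion, with F = 45.2 in proximal, 42.7 in distal and 11.1 in sham arrays, among 50%, 16.7% and 53.6% of genes called.

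The rise was taken as the late window minus the early window within a lesion. Atf3 rose by 5.13 after the proximal lesion (SE 0.33, 34.9-fold, adjusted p = 2.43e-18) and by 4.60 after the distal lesion (SE 0.31, 24.3-fold, adjusted p = 6.6e-18). In sham arrays it rose by 1.84 (SE 0.33, 3.59-fold, adjusted p = 0.00019). The genes called higher were 18.8%, 15.2% and 11.7% of those tested for proximal, distal and sham, and the genes called lower 6.38%, 9.47% and 3.12%. After another quantile normalization the proximal split was 2172 genes higher and 1593 lower, against 2306 and 783 as deposited. Distal arrays of set A alone gave a rise of 4.71 (11 arrays against 6).

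Among genes above the filter level in both windows, Atf3 had the largest rise in each of the 3 lesions (12159 genes in proximal, 11808 in distal and 12171 in sham arrays). After the proximal lesion the next were Reg3b, a secreted lectin (4.10, SE 0.23), Il6 (3.61, SE 0.25), Tslp (3.39, SE 0.23) and Tnfaip6 (3.22, SE 0.21). After the distal lesion they were Il6 (4.40, SE 0.24), Reg3b (3.91, SE 0.21), the related lectin gene Reg3a (3.16, SE 0.21) and Vip, a neuropeptide gene (2.96, SE 0.13). The early levels of Il6 (4.28 proximal, 4.18 distal), Tslp (4.96), Tnfaip6 (5.39) and Vip (4.80) lay below the filter level of 5.46, so their rises can be understated and were not ranked against that of Atf3. As lower bounds against that level, Il6 rose at least 5.35-fold after the proximal and at least 8.66-fold after the distal lesion. In sham arrays the next were Arpc4, for an actin-nucleating subunit (1.58, SE 0.36), Cemip2, for a membrane hyaluronidase (1.51, SE 0.37), Gnb1, for a G protein subunit (1.50, SE 0.30), and Camk2a, for a calcium-dependent kinase (1.43, SE 0.28). Of these, Arpc4, Cemip2 and Gnb1 also rose at least 2-fold after the proximal lesion.

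**Figure D3:**
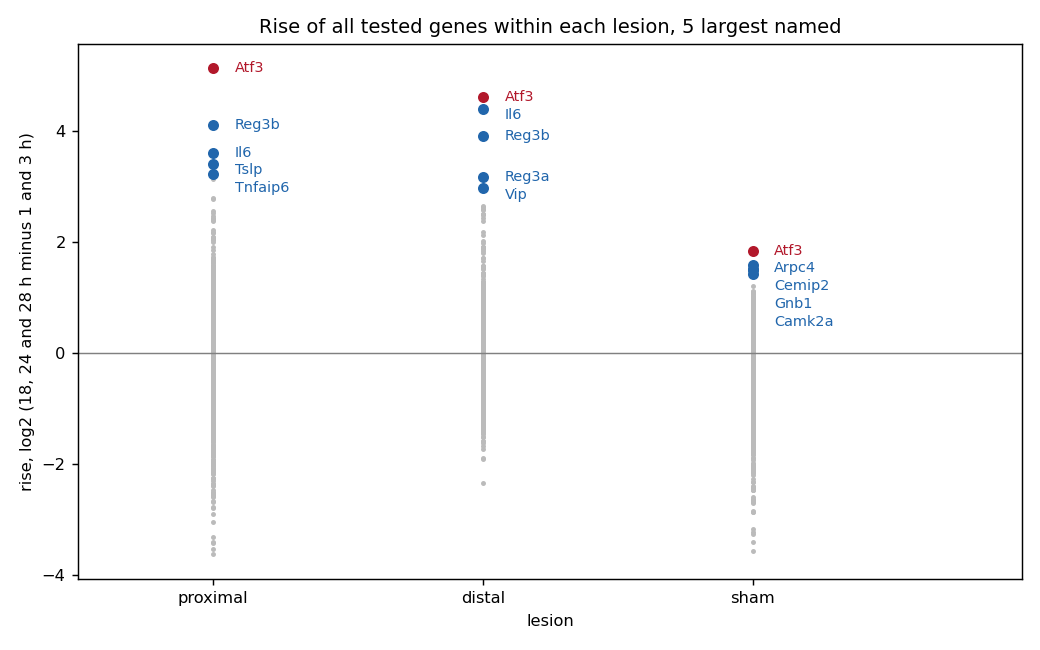
Rise of every tested gene (log2 difference of 18, 24 and 28 h minus 1 and 3 h, vertical axis) in proximal, distal and sham arrays. Each point is a gene, and the 5 largest rises of each lesion are named from top to bottom. Atf3 has the highest point of each column, with 5.13, 4.60 and 1.84, and the Il6, Tslp, Tnfaip6 and Vip points can be understated.

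The rises differed between the lesions and sham. The proximal rise exceeded the sham rise by 3.28 (SE 0.47, adjusted p = 1.52e-06), in a test in which 3.26% of genes were called. The distal rise exceeded the sham rise by 2.76 (SE 0.45, adjusted p = 1.56e-05), with 17.8% of genes called. Distal and proximal rises differed by -0.52 (95% interval -1.43 to 0.38, adjusted p = 0.446), with 16.5% called.

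Some of the genes that rose after a lesion also rose in sham arrays. Of 156 genes that rose at least 2-fold after the proximal lesion, 9 (5.77%) rose at least 2-fold in sham arrays, and of 103 such genes after the distal lesion 2 (1.94%) did, against 18 of all 12276 genes (0.147%). Those 2 were Atf3 and the forkhead factor gene Foxs1, which was named after its values were seen. By the call alone, 52 of the 156 genes (33.3%) and 22 of the 103 genes (21.4%) were also higher in sham arrays. The share over all genes was 11.7%. Proximal and sham arrays lay in the same technical sets in both windows, so their shared rises cannot be told apart from set. With technical set as a random block 553 genes were called in the sham rise, against 1822. Reg3b, which rose by 4.10 and 3.91 after the lesions, rose by 0.88 in sham arrays (SE 0.23, adjusted p = 0.00794). Gadd45a, a stress gene of growth arrest, rose by 2.79 and 2.12 after the lesions and had 0.46 in sham arrays (SE 0.21, adjusted p = 0.127). Sox11, a transcription factor gene of growing neurons, rose by 2.56 and 1.70 and had 0.29 in sham arrays (SE 0.21, adjusted p = 0.343). Jun, which encodes a dimer partner of ATF3, rose by 1.40 and 0.73 and had 0.25 in sham arrays (adjusted p = 0.256).

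Within set C, 24 and 28 h could be set against 1 h. There Atf3 averaged 8.98 on 6 sham arrays of 24 and 28 h and 7.48 on 3 sham arrays of 1 h, a difference of 1.50 that ranked 2 among all genes. Reg3b had 0.73 in the same comparison, Gadd45a 0.40 and Sox11, which lay near the filter level, 0.098. The 6 sham arrays of 24 and 28 h were uneven: 7.83 and 7.96 were near the 1 h arrays, and 10.15 and 10.16 were the highest.

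Sham array b of 12 h carried more than Atf3. Its Atf3 lay 4.23 above array a, the widest gap of all 12276 genes. Gadd45a read 11.40 on array b and 7.93 on array a, Il6 7.07 and 4.54, and Sox11 7.56 and 5.09. The Gadd45a value of array a was the lowest of any array in any lesion. The next lowest was 9.33, on sham array b of 8 h. The Gadd45a gap thus holds a low value on array a as well as a high value on array b. The proximal arrays of 12 h read 10.59 and 11.12 for Gadd45a, 4.82 and 4.48 for Il6, and 6.22 and 7.31 for Sox11, so array b was above both proximal arrays for each of these 3 genes. Of 29 tested genes of a list of injury-induced genes, 11 were at least 2-fold higher on array b than on array a, against 11.5% of all genes, and 2 (Csf1 and Sprr1a) at least 2-fold lower, against 3.91% of all genes. Array b lay in set B and array a in set D, as did proximal arrays b and a of 12 h. Of the 11 genes, 4 were also at least 2-fold higher on proximal array b than on proximal array a, against 8.98% of all genes. Smad1, for a signalling factor, was at 10.40 and 8.97 there, and Tubb6, for a tubulin, at 8.60 and 7.41. The part of technical set in the sham gap was not tested.

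Timing was compared among genes that rose at least 2-fold. Atf3 was first called above 1 h at 12 h in each lesion, but in sham arrays this rested on array b of 12 h. Without it the sham value at 12 h was -0.16 (adjusted p = 0.862) and Atf3 was first called at 16 h, on 1 array (2.49, adjusted p = 0.00185). The distal call at 12 h was lost without any 1 of 5 arrays. The proximal call at 12 h was lost with array weights (3.13, adjusted p = 0.665) and with technical set as a random block (3.05). Of the 156 genes of the proximal lesion, 13 were first called at 3 h, 3 at 8 h, 10 at 12 h, 52 at 16 h and 57 at 18 h. Another 5 each were first called at 24 and 28 h, and 11 at no hour. The proximal calls at 3 and 8 h compared set D with set C. With technical set as a random block, 0 genes were called at either hour. Of the 103 genes of the distal lesion, 5 were first called at 8 h, 9 at 12 h, 26 at 16 h, 28 at 18 h and 31 at 24 h, and 4 at no hour. Of 18 genes that rose at least 2-fold in sham arrays, Atf3 was first called at 12 h (with array b), 3 others at 16 h and 14 at no hour.

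The hour at which a line through the hourly means crossed the midpoint between the 3 h mean and the late mean was taken as a second measure of timing. For Atf3 it was 10.3 h after the proximal lesion, place 11 of 130 genes with a median of 14.6 h. After the distal lesion it was 12.0 h, place 29 of 97 genes with a median of 14.1 h. Jun crossed its midpoint at 10.5 h, Sox11 at 11.2 h, Gadd45a at 12.1 h, Reg3b at 12.7 h and Il6 at 16.3 h after the proximal lesion. After the distal lesion Reg3b crossed at 13.1 h, Gadd45a and Sox11 at 13.4 h and Il6 at 14.1 h. These hours carry no error. The proximal arrays of 8 h lay in set D and those of 12, 16 and 18 h in sets B and D.

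The genes most like Atf3 were found by Pearson's r over the 24 group means. The first 10 of 12275 other genes included Reg3b (0.974), Rassf10, for a Ras association domain protein (0.967), Adamts8, for a secreted metalloprotease (0.965), Reg3a (0.959), Sox11 (0.958), Nabp1, for a protein that binds single-stranded DNA (0.944), Arid5a, for an RNA-binding protein known to stabilise Il6 mRNA (0.943), Gadd45a (0.941) and Acss2, for an acetyl-CoA synthetase (0.939). Jun came at place 17 (0.928), and 24 genes exceeded 0.9. With each lesion's own mean taken away, 8 of the 10 stayed among the first 10, and Adamts4 (0.957), for a related protease, and Sbno2 (0.936), for a transcriptional co-regulator, came in. The points share their arrays and technical sets, so these values describe likeness only.

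The likeness held over a wide range of levels but not for every gene in every lesion. Reg3b read 10.47 to 11.37 on late proximal arrays, 9.52 to 11.65 on late distal arrays and 7.28 to 8.21 on late sham arrays. Sox11 read 7.43 to 8.14, 6.52 to 7.78 and 5.18 to 5.74 on the same arrays, and the 4 sham arrays with the highest late Atf3 (9.30 to 10.16) had Sox11 values of 5.39 to 5.74. Il6 read 7.13 to 8.83 on late proximal arrays, 6.09 to 9.33 on late distal arrays and 4.07 to 5.11 on late sham arrays. On the proximal arrays of 12 h, where Atf3 had reached 10.58 and 11.46, Il6 still read 4.82 and 4.48.

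**Figure D4:**
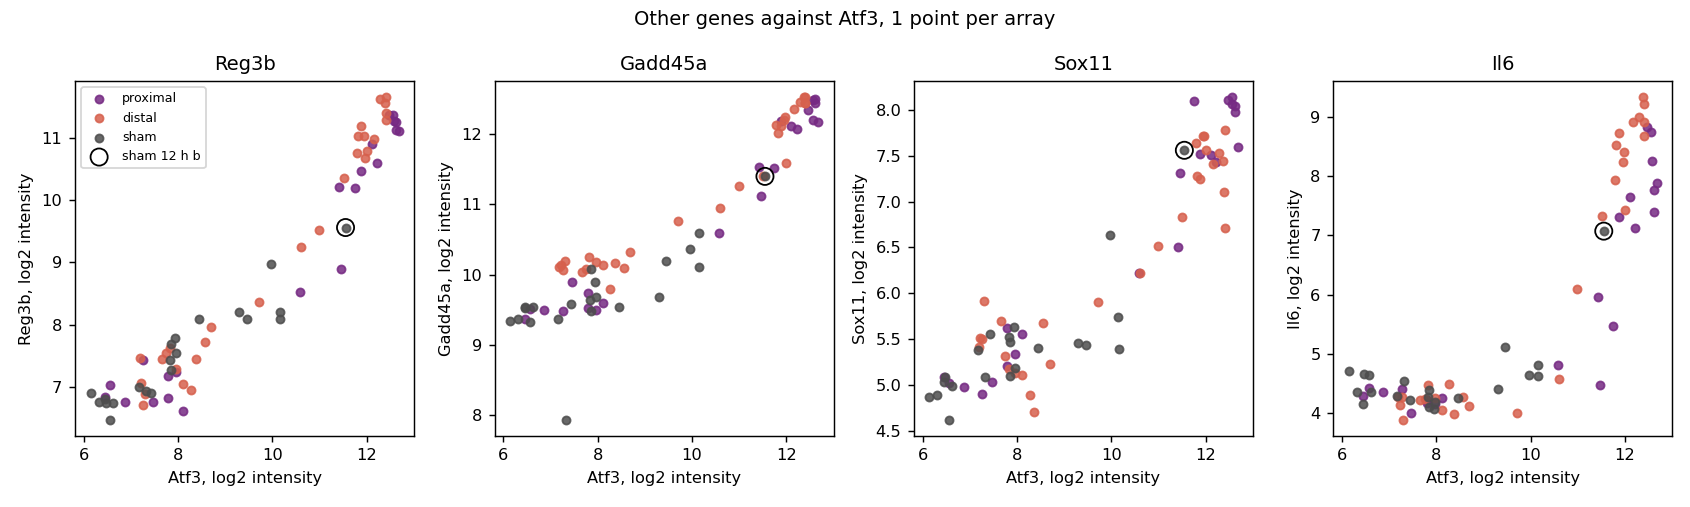
Reg3b, Gadd45a, Sox11 and Il6 (vertical axes) against Atf3 (horizontal axes), all in log2 intensity, with 1 point for each proximal, distal and sham array. Reg3b stays at 6.48 to 7.72 on arrays of 1, 3 and 8 h, whose Atf3 runs from 6.14 to 8.56. It climbs with Atf3 on later arrays. Il6 is at 5.11 or lower on every array whose Atf3 is at 10.60 or lower. The circled sham array b of 12 h lies among the lesion arrays.

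A list of kinases, scaffolds and phosphatases of the JNK pathway, which acts upstream of Atf3, had 18 genes, with 12 named on the array and 11 tested. The 11 included the phosphatase genes Dusp1 and Dusp10, and Mapk14, for a p38 kinase. In the late proximal comparison with sham, 1 was higher, 1 lower and 9 were not called, where 5.35% of all genes were higher and 4.36% lower, with a median of 0.032 against -0.016 for all genes. Map3k12, for the dual leucine zipper kinase of axon injury signalling, differed by -0.29 (SE 0.071, adjusted p = 0.00294). Dusp1, for a phosphatase that shuts off the pathway, was 0.63 higher (SE 0.16, adjusted p = 0.00397). Over time Dusp1 had 0.016 in proximal arrays (adjusted p = 0.96) and fell by 0.61 in sham arrays (adjusted p = 0.0147). Mapk8, for JNK1, differed by 0.17 (SE 0.092, adjusted p = 0.292). Over time 3 of the 11 rose and 2 fell in proximal, 2 rose and 3 fell in distal, and 2 rose and 2 fell in sham arrays. Of all genes 18.8% rose and 6.38% fell in proximal, 15.2% and 9.47% in distal, and 11.7% and 3.12% in sham arrays. Map3k12 fell in each, by 0.43, 0.36 and 0.28.

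The integrated stress response list, whose factor ATF4 is known to act on Atf3, had 19 tested genes. Against sham, 8 were higher on late proximal arrays (against 5.35% of all genes), 0 lower and 11 not called, with a median of 0.27. Eif2ak3, for the kinase PERK, was 1.71-fold higher (adjusted p = 1.34e-05), Trib3, for a pseudokinase, 1.53-fold, Ppp1r15a, for a phosphatase subunit of the feedback loop, 1.50-fold and Slc3a2, for an amino acid transporter subunit, 1.25-fold. Over time 12 rose and 1 fell in proximal, 4 rose and 1 fell in distal, and 4 rose and 1 fell in sham arrays, beside 18.8%, 15.2% and 11.7% of all genes that rose. Atf4 itself rose by 0.57 in proximal arrays (SE 0.087, adjusted p = 1.37e-06) and by 0.32 in sham arrays (SE 0.087, adjusted p = 0.0105).

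A list of bZIP factor genes, mainly of the AP-1 and ATF/CREB families, had 23 tested genes other than Atf3. It also held the C/EBP family genes Cebpb, Cebpd, Cebpg and Ddit3, besides Nfe2l2, Maff and Mafk. On late proximal arrays 11 were higher than in sham (against 5.35% of all genes), 0 lower and 12 not called, with a median of 0.31. Cebpd, Nfe2l2, Maff and Mafk were among these 11. Fos, an AP-1 partner of Jun, was higher 3.85-fold (adjusted p = 4.87e-07), Crem, for a cAMP-responsive factor, 2.98-fold (adjusted p = 1.38e-12), Cebpd, for a factor of the C/EBP family, 2.28-fold (adjusted p = 1.75e-08) and Jun 2.08-fold (adjusted p = 8.2e-08). Each lay well below the 12.3-fold of Atf3. Over time 13 rose and 1 fell in proximal, 9 rose and 2 fell in distal, and 2 rose and 1 fell in sham arrays. The shares of all genes that rose were again 18.8%, 15.2% and 11.7%. Crem rose by 1.49 in proximal and 1.10 in distal arrays, and Maff, for a small Maf factor, by 0.96 in distal arrays. In sham arrays Atf4 (0.32) and Atf5 (0.36, adjusted p = 0.0124) rose and Atf6, for a factor of the unfolded protein response, fell by 1.41 (adjusted p = 0.0054). Atf5 also rose by 0.37 in distal arrays (adjusted p = 0.00183), and Atf6 also fell by 1.31 in proximal arrays (adjusted p = 0.00387). Atf2, for a factor activated by JNK, fell by 1.21 in distal arrays (adjusted p = 9.17e-06).

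**Figure D5:**
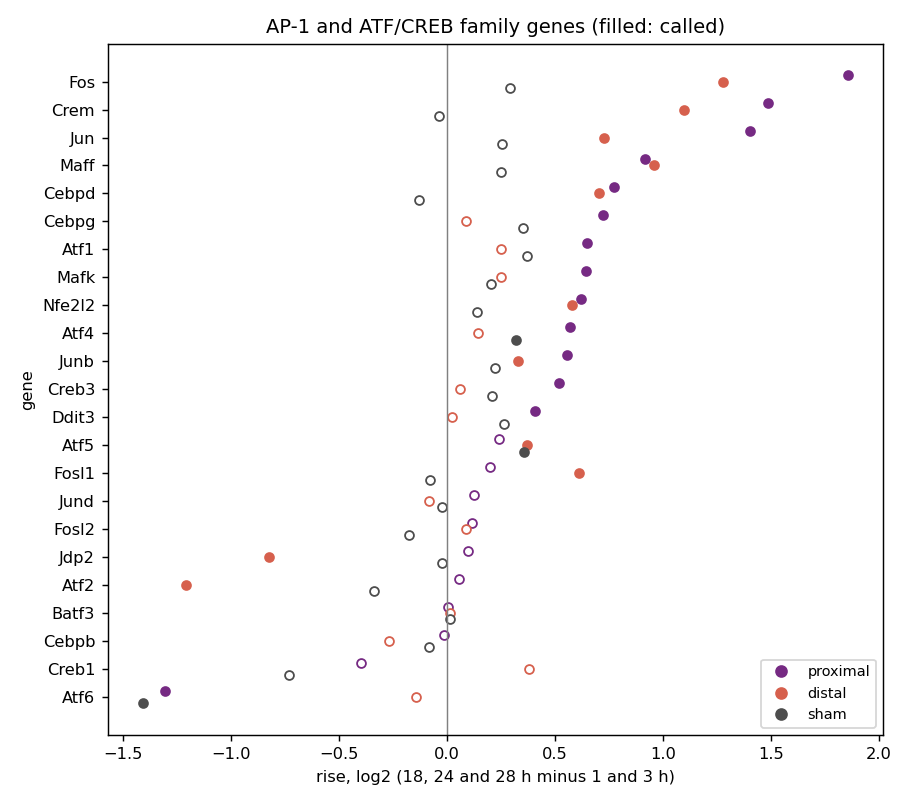
Rise (log2 difference of 18, 24 and 28 h minus 1 and 3 h, horizontal axis) of 23 tested bZIP factor genes (vertical axis). These are the AP-1 and ATF/CREB list without Atf3, which also holds C/EBP and Maf genes and Nfe2l2. Filled points were called. Fos, Crem and Jun lead the proximal points at 1.86, 1.49 and 1.40, and Atf4 and Atf5 are the only filled sham points above 0.

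Injury-induced genes of sensory neurons, a list of 29 tested genes known to respond to axon injury, moved with Atf3. Against sham, 25 were higher on late proximal arrays (against 5.35% of all genes), 0 lower and 4 not called, with a median of 1.08. The list was drawn up with results of these data known, so its count is no independent evidence. Vip was higher by 2.63 (SE 0.12) and Adcyap1, another neuropeptide gene, by 1.78 (SE 0.097), and the membrane protein gene Flrt3 by 2.70 (SE 0.19). Over time 26 rose and 1 fell in proximal and 23 rose and 0 fell in distal arrays, with medians of 1.14 and 1.11, where 18.8% and 15.2% of all genes rose. In sham arrays 7 rose (against 11.7% of all genes), 1 fell and 21 were not called, with a median of 0.14 against 0.11 for all genes. Adcyap1 rose by 0.53 (SE 0.11, adjusted p = 0.000859), Sema6a, for a guidance protein, by 0.52 (SE 0.16) and Hspb1, for a small heat shock protein, by 0.38 (SE 0.12) in sham arrays. Cacna2d1, for a calcium channel subunit, fell by 1.64 in proximal and in sham arrays.

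Immediate-early genes were a list of 23 tested genes that many stimuli switch on within minutes. Of these, 12 were higher on late proximal arrays than in sham (against 5.35% of all genes), 0 lower and 11 not called. Gadd45g, a stress gene, was higher 3.47-fold, Csrnp1, for a nuclear protein, 2.39-fold and Myc 2.20-fold. Over time 9 rose and 1 fell in proximal and 10 rose and 4 fell in distal arrays, and in sham arrays 0 rose, 4 fell and 19 were not called. Of all genes 18.8%, 15.2% and 11.7% rose and 6.38%, 9.47% and 3.12% fell in proximal, distal and sham arrays. The 4 that fell in sham arrays were Egr2 (by 1.00), Zfp36 (by 0.59), Klf4 (by 0.58) and Dusp1 (by 0.61). Egr2 also fell in proximal (by 0.63) and distal arrays (by 0.61), and Klf4 and Dusp1 in distal arrays (by 0.69 and 0.71). The difference between lesions in these counts was not tested.

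Macrophage markers were also higher after the proximal lesion. Of 13 tested macrophage markers, 8 were higher on late proximal arrays than on sham arrays (against 5.35% of all genes), 0 lower (against 4.36%) and 5 not called. Their summed linear intensity was 6478 to 15490 on late proximal arrays, 5712 to 10510 on late distal arrays and 4973 to 8682 on late sham arrays. Of 2 tested neutrophil markers 1 was higher, and the sums of the neutrophil list were 143.4 to 922.8 on late proximal arrays, 123.4 to 188.2 on late distal arrays and 151.9 to 197.2 on late sham arrays. Skeletal muscle markers summed to 1821 to 4443 on late proximal arrays, 3918 to 21620 on late distal arrays and 1946 to 10540 on late sham arrays, with 0 of 8 tested called between proximal and sham. The part of these cells in the Atf3 result was not tested, and in whole ganglia more cells of a type and more RNA per cell cannot be told apart.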

How the data were processed

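RNA of rat dorsal root ganglia was measured on 72 Affymetrix arrays after sham surgery or a proximal or distal sciatic nerve lesion, with RNA from a Qiagen kit, per the labels' protocols. Per the submitters' processing notes, the authors ran RMA, a method that corrects background, equalises array distributions and summarises probes, and what they deposited are its log2 intensities. The RMA version, and whether all arrays were normalized together, are not given in the sources used here.

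Lesion, hour and array letter came from the labels. Of 31099 probe sets, 57 controls were left out. The platform annotation gave 1 symbol to 20826 probe sets, several to 436 and none to 9780, and 20758 matched RefSeq by Entrez identifier with 0 symbols changed. The brightest probe set on average stood for its gene, and genes whose mean fell under the 25th percentile (5.46 log2) were not tested. A difference from a group below that level can be understated.

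Tests used limma 3.58.1 in R 4.3.3 (files read with the data.table package, version 1.17.8): 1 mean for each of 24 groups, all 72 arrays, 48 residual degrees of freedom, empirical Bayes with trend, two-sided, Benjamini-Hochberg over 12276 genes, called at an adjusted p under 0.05. Windows averaged hours with equal weight. A lone array was assumed to vary like the other groups. The calculation was tested on simulated data.

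Besides Atf3, the text names the 10 genes most like it (also with lesion means taken away), the 5 largest differences of a window comparison, the 4 members of each pathway list with the smallest p, Jun and Sox11. Of the 10 genes most like Atf3, 1 is not reported here. Atf3 and all lists were chosen with earlier results of these data known. Technical sets were found by Ward clustering of arrays on probe sets below the filter. Alternatives were other filters (none, or the 50th percentile, 7.01 log2), array weights, a repeat of quantile normalization, omission of the arrays with letters do, eo or fo, testing all probe sets, fitting only the arrays compared, a replicate block by letter, a block by technical set, and omission of each array in turn. Leaving out sham array b of 12 h in every comparison was added after the data were seen.

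The meaning of the array letters is not given. Deviations of proximal and sham arrays with the same letter correlated above 0.1 for every pair at 1 h (0.696, 0.509 and 0.478) and at 18 h (0.618, 0.714 and 0.799), and at no other hour with 3 pairs. No 2 arrays held identical values.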

Additional observations from a re-analysis of the deposited data

Results flagged for a closer look

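The rise of Atf3 differed between lesions by the test of the difference itself. It was 5.13 in proximal and 1.84 in sham arrays, a difference of 3.28 (SE 0.47, adjusted p = 1.52e-06, limma). It was 4.60 in distal and 1.84 in sham arrays, a difference of 2.76 (SE 0.45, adjusted p = 1.56e-05, limma). All 9 late proximal and all 12 late distal arrays lay above all 9 late sham arrays. Over the early window of 1 and 3 h the arrays of the 3 lesions overlapped. At 3 h alone the distal arrays (7.19 to 7.30) lay above all proximal (6.45 to 6.87) and all sham arrays (6.31 to 6.47). All distal arrays of 3 h lay in set A, so lesion and set cannot be told apart there. The 3 groups of 4 or more arrays (distal at 1, 8 and 18 h) held 0 arrays far from the others by Dixon's test.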

How the results depend on the processing

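Over alternatives other than leaving out 1 array, 387 Atf3 results kept their direction and side of the threshold, 11 became called, 13 were no longer called and 0 reversed. The late proximal difference from sham, the 3 rises and the differences of the proximal and distal rises from sham kept their call under every alternative run, with ranges of 3.48 to 4.15 for that difference, and 4.88 to 5.29, 4.51 to 4.79 and 1.47 to 1.99 for the proximal, distal and sham rises. Where a call changed, the cause was not tested.

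For proximal 3 h minus 1 h the call was lost without a filter (-1.33, adjusted p = 0.0515), with every probe set (-1.33, adjusted p = 0.0538), with the letter as a replicate block (-1.33, adjusted p = 0.052) and with technical set as a random block (-0.93, adjusted p = 0.885). The letter block changed no other Atf3 call. The random block also ended the calls of sham 12 h (1.94) and 16 h (2.06) and of proximal 12 h (3.05), 16 h (3.62) and 18 h (4.20, adjusted p = 0.0633) over 1 h, and turned the sham rises of Jun (-0.036) and Sox11 (-0.030). Array weights brought calls for proximal minus sham at 8 h (1.06), distal minus sham early (0.55), the distal minus proximal rise (-0.61, adjusted p = 0.0444) and sham 3, 8, 18 and 28 h minus 1 h (-1.01, -0.91, 0.52 and 0.57). They ended those of sham 12 h (2.01) and proximal 12 h (3.13) over 1 h. Fitting only the arrays compared brought calls for proximal minus sham at 8 h (1.06), distal minus sham early (0.58) and sham 3 h and 8 h minus 1 h (-1.07 and -1.04). It ended those of proximal minus sham at 18 h (3.89, adjusted p = 0.0988) and sham 12 h minus 1 h (1.96).

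Leaving out each array in turn, 514 Atf3 results were unchanged in direction and call, 16 were no longer called, 3 became called and 2 reversed. Proximal minus sham at 12 h ranged from -0.53 (without sham array a) to 3.70 (without array b), and sham 12 h minus 1 h from -0.16 (without array b) to 4.07. That last call was also lost without sham array c of 1 h. Distal 12 h minus 1 h ranged from 1.39 to 2.34, proximal 3 h minus 1 h from -1.45 to -1.24 and sham 24 h minus 1 h from 1.40 to 2.25. Sham 3 h and 8 h minus 1 h, which ranged from -1.22 to -0.88 and from -1.20 to -0.86, were called without sham array b of 12 h (adjusted p = 0.0381 and 0.0344), an omission chosen after seeing the data.

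Counts of genes called moved more. With array weights, the late proximal comparison had 3429 genes against 1192, and the proximal, distal and sham rises 6748, 6578 and 8661 against 3089, 3023 and 1822. With technical set as a random block the late distal comparison had 88 against 7590 genes, distal minus proximal 2 against 6553, the early distal comparison 0 against 6751 and the sham rise 553 against 1822. Another quantile normalization gave 838 higher and 967 lower genes for the late proximal comparison, against 657 and 535, and 438 higher and 569 lower for the proximal minus sham rise, against 218 and 182. It moved the median of all genes to -0.0285 against 0.13 in the early distal comparison and to -0.065 against -0.20 at sham 8 h minus 1 h. The letter block gave 14 against 4 genes for proximal minus sham at 12 h, 22 against 6 at 16 h, and 150 against 70 for sham 18 h minus 1 h. Outside the omission of arrays 153 counts moved by over 1.5 times. Late proximal counts of genes higher in the bZIP, stress response, injury and immediate-early lists were 11, 9, 25 and 12 without sham array b of 12 h and 15, 11, 25 and 12 with technical set as a fixed block, both chosen after seeing the data. Technical set as a fixed block could not be fitted for 19 comparisons, among them those with distal arrays against others and the sham and proximal rises. No other probe set of Atf3 was there to try. Atf3 lay above the filter level on every array. On sham arrays of 3 and 8 h and proximal arrays of 3 h (6.14 to 6.87) it lay below the array medians (6.88 to 7.08). Whether dim signal limits its early values was not tested.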
